A study of Rattus norvegicus with 4 samples.

Results

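Resting zone chondrocytes (RC-cells) of the rat growth plate and the matrix vesicles that they release (RC-MVs) were compared in their miRNAs. Every miRNA of the deposited table entered the comparison by a fixed rule: reads of loci with the same product name were added together, divided by all miRNA reads of the library, and the percent in RC-MVs was divided by the percent in RC-cells. Of 740 miRNA names, 513 had a read in at least 1 of both libraries and 293 had 10 or more reads in both. These 293 are called measured, and ranked statements were made for them only. They took up 99.9% of all reads in RC-MVs against 99.8% in RC-cells.

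RC-cells were chondrocytes from the resting zone of the costochondral (rib) cartilage of male Sprague Dawley rats, grown to confluence in culture and used at passage 4. RC-MVs were collected from the same kind of culture, by trypsin digestion of the cell layer followed by differential centrifugation. Both were untreated, and each was sequenced as 1 small RNA library. Vesicles and cells of the growth zone (GC-MVs and GC-cells, also 1 library each) complete the series and share no library with the comparison described here. The cultures were passaged, grown with ascorbic acid and fetal bovine serum, which the study's methods describe as centrifuged to remove bovine exosomes, and the digestion was stopped with exosome-free serum. An RNA of the serum with the same sequence as a rat miRNA would be counted with it, and the part of serum in the values was not tested.

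A miRNA is a short RNA that is cut from one or the other arm of a hairpin precursor, named 5p and 3p, and guides the silencing of mRNAs with which it pairs through its seed, bases 2 to 8 from the 5′ end. miRNAs with the same seed form a family and can share targets, while miRNAs whose genes lie side by side are often transcribed together as a cluster. Matrix vesicles are small membrane-bound particles anchored in the extracellular matrix of cartilage, known for their enzymes and for the start of mineral formation in the growth plate, and the resting zone is the reserve of less mature chondrocytes at its end. Whether the miRNAs of vesicles mirror those of their cells was the question of the comparison, here asked by family, by arm, by cluster and by sequence.

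The sequences behind the results are given as RefSeq lists them for the rat assembly GRCr8, 5′ to 3′, with the seed in capitals. The first set is the let-7 family, 9 miRNAs with 1 seed whose shares nonetheless differed in both directions.
let-7b-5p: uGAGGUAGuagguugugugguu
let-7c-5p: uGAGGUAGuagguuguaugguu
let-7d-5p: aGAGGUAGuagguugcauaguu
let-7a-5p: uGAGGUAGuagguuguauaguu
let-7e-5p: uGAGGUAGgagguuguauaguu
let-7i-5p: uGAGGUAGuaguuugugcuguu
let-7g-5p: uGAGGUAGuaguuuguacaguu
let-7f-5p: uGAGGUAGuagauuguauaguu
miR-98-5p: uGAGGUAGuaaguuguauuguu

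They stand in the order of their ratios, from the highest to the lowest. The next set is the miR-148a, miR-148b and miR-152 family, the other seed group of which 1 member had an at least 2-fold higher share in RC-MVs and others at least 2-fold lower.
miR-152-3p: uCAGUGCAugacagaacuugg
miR-148b-3p: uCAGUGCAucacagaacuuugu
miR-148a-3p: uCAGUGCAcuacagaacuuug

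Arms of 1 precursor have different seeds. Those of Mir140, Mir148a (3p arm above), Mir27a and Mir485 are shown because the arms of each lay on opposite sides of 2-fold.
miR-140-5p: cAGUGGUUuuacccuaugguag
miR-140-3p: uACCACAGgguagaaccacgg
miR-148a-5p: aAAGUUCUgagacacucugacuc
miR-27a-5p: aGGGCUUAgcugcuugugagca
miR-27a-3p: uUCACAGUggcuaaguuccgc
miR-485-5p: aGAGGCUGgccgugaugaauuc
miR-485-3p: cAUACACGgcucuccucucuuc

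The last set was chosen from near both ends of the ranking to show the difference in base composition described at the end. Not all miRNAs there show it. miR-92a-1-5p, among the highest ratios, holds 47.8% G and C, and miR-411-5p, among the lowest, 47.6%. The set gives first 3 miRNAs far higher in RC-MVs and then 3 far lower.
miR-296-3p: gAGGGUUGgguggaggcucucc
miR-134-5p: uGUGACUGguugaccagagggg
miR-770-3p: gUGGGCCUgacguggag
miR-26b-5p: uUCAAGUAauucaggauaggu
miR-369-3p: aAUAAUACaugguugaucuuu
miR-411-3p: uAUGUAACacgguccacuaa

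The depth was 1108821 miRNA reads for RC-MVs and 6517329 for RC-cells, a 5.88-fold difference, and 3 reads were worth 0.000271% and 4.60e-05% of them, respectively. The growth zone libraries held 982543 (GC-MVs) and 7414467 (GC-cells) miRNA reads. No difference could be checked in replicates or tested, as each group is 1 library. The 95% intervals given for ratios (exact Clopper-Pearson) cover counting error only, and PCR copies of a molecule were counted as separate reads, so that the intervals are too narrow by an unknown amount. A share is relative to all miRNA reads of its library, and a miRNA with a lower share in RC-MVs may not be rarer per vesicle. Counts within let-7 and other families of nearly the same sequence are uncertain, since the treatment of reads that fit several of them is not given in the sources used here.

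Of the 293 measured miRNAs, 101 (34.5%) had a share at least 2-fold higher in RC-MVs, 83 (28.3%) had a share at least 2-fold lower, and 109 lay between. The median log2 ratio was 0.12. The 101 higher miRNAs made up 53.5% of the RC-MV reads and 10.4% of the RC-cell reads. The 83 lower miRNAs made up 23.1% and 66.9%, respectively. Most reads of both libraries thus belonged to miRNAs called in one direction or the other.

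**Figure D1:**
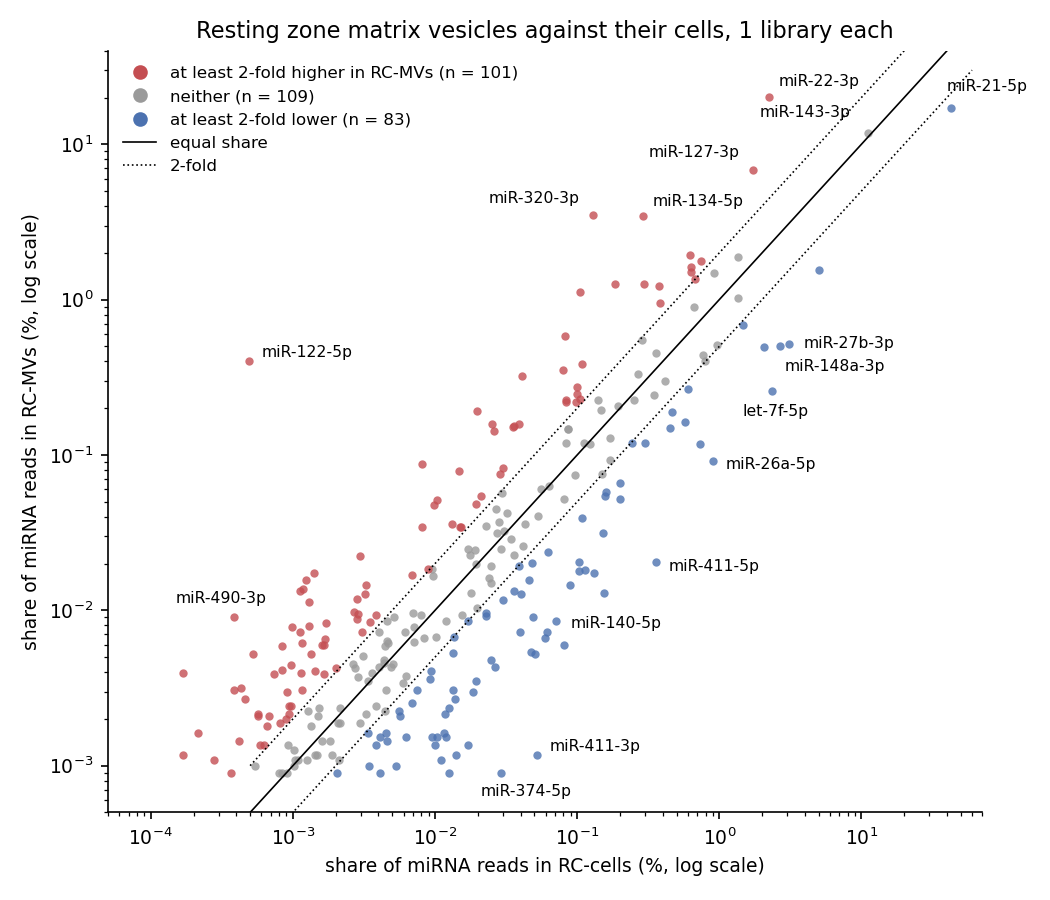
Share of miRNA reads (%) of each of the 293 measured miRNAs in RC-cells (horizontal) and RC-MVs (vertical), both on log scales, 1 library each. The solid line marks equal shares and the dotted lines 2-fold; 101 miRNAs lie above the upper dotted line and 83 below the lower, among them abundant ones such as miR-22-3p and miR-21-5p.

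The miRNAs with the most reads changed places. miR-22-3p, a widely expressed miRNA, had 224720 reads in RC-MVs against 145113 in RC-cells, or 20.3% and 2.23% (ratio 9.10, interval 9.04 to 9.16). miR-21-5p, abundant in fibroblast-like and stressed cells, had 190801 and 2783003 reads, or 17.2% and 42.7%, a share 2.48-fold lower in RC-MVs (2.47 to 2.49). miR-143-3p, a miRNA of mesenchymal and smooth muscle cells, had 130495 and 730396 reads and differed little, at 11.8% and 11.2% (ratio 1.05).

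Below these, several miRNAs prominent in RC-cells held small shares in RC-MVs. miR-27b-3p, known to target regulators of fat cell differentiation, had 5754 reads in RC-MVs against 202909 in RC-cells, or 0.519% and 3.11%, 6.0-fold lower (5.84 to 6.16). miR-199a-5p, whose gene also gives miR-199a-3p and lies beside that of miR-214, had 5530 and 135083 reads, 4.16-fold lower (4.05 to 4.27). Its 3p partner had 7617 and 95347 reads and was 2.13-fold lower, while miR-214-3p had 2285 and 12660 reads and nearly equal shares of 0.206% and 0.194%. In the other direction, miR-320-3p, which is made without the usual hairpin cut by Drosha, had 38787 reads in RC-MVs against 8411 in RC-cells, or 3.50% and 0.129%. In the growth zone the ratio of miR-320-3p was 15.2, against 27.1 in the resting zone. The largest ratio of all measured miRNAs was that of miR-122-5p, with 4447 and 32 reads (817-fold higher, 578 to 1196). Its growth zone ratio was 2491. Among the 10 largest ratios were also those of miR-490-3p (100 and 25 reads, 23.5-fold higher), miR-615 (174 and 80 reads, 12.8-fold) and miR-664-2-5p (11.6-fold). Among the 10 smallest were those of miR-374-5p (10 and 1899 reads, 32.3-fold lower), miR-379-3p (15 and 1103 reads, 12.5-fold) and miR-369-5p (13 and 921 reads, 12.1-fold), all with few reads in RC-MVs.

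The families of the same seed were then described. Of 19 families with at least 2 measured members, RC-MVs had a summed share at least 2-fold higher for 3 (miR-181, miR-378 and miR-193), at least 2-fold lower for 6 (miR-30, miR-29, miR-15 with miR-16, miR-27, miR-26 and miR-34) and between these limits for 10. A sum follows its most abundant member, so members are given below each sum.

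The let-7 family, which holds back proliferation and is the classic timer of differentiation, was the largest of these families in reads. Its 9 members together had 65157 reads in RC-MVs against 719600 in RC-cells, or 5.88% and 11.0% of miRNA reads, 1.88-fold lower in RC-MVs (1.86 to 1.89). This sum hid members that went apart. let-7b-5p had 17998 and 41324 reads, or 1.62% and 0.634%, and was 2.56-fold higher in RC-MVs (2.52 to 2.61). let-7f-5p had 2852 and 153456 reads, or 0.257% and 2.35%, and was 9.15-fold lower (8.82 to 9.5). let-7i-5p, the family's most abundant member in RC-cells, had 17104 and 325830 reads and was 3.24-fold lower (3.19 to 3.29). In RC-MVs let-7c-5p led the family instead, with 20859 reads against 87539 in RC-cells and a ratio of 1.4.

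Among the remaining members, let-7d-5p was 1.33-fold lower in RC-MVs (1428 and 11124 reads), let-7a-5p 2.27-fold lower (2954 and 39351), let-7e-5p 2.86-fold lower (604 and 10153), let-7g-5p 6.22-fold lower (1300 and 47536) and miR-98-5p 9.64-fold lower (58 and 3287). Thus 1 of 9 members was called higher and 6 lower, where 34.5% and 28.3% were called over all measured miRNAs, and the median log2 ratio was -1.52, beside 0.12 over all measured miRNAs. From let-7b-5p to miR-98-5p the ratios spanned 24.7-fold, although the mature sequences differ at few bases outside the seed. The members with most G and C, let-7b-5p with 45.5%, and least, let-7f-5p and miR-98-5p with 31.8%, stood at the ends of the order. Members of equal composition still differed, since let-7c-5p, let-7d-5p, let-7e-5p and let-7i-5p each hold 40.9% G and C and ranged from 1.4-fold higher to 3.24-fold lower. GC-MVs had a let-7b-5p share 2.13-fold higher and a let-7f-5p share 11.1-fold lower than GC-cells. let-7c-5p, in contrast, was 1.09-fold lower and let-7d-5p 1.14-fold higher there.

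The miR-148 and miR-152 family, which targets DNA methyltransferase 1 among others, showed the same kind of split. miR-152-3p had 19672 reads in RC-MVs against 48775 in RC-cells, or 1.77% and 0.748%, and was 2.37-fold higher in RC-MVs (2.33 to 2.41). miR-148a-3p had 5540 and 174303 reads, or 0.50% and 2.67%, and was 5.35-fold lower (5.21 to 5.50). miR-148b-3p had 228 and 6660 reads and was 4.97-fold lower. Because of this split the family's summed share differed by only 1.54-fold, lower in RC-MVs. Among 31 groups of measured miRNAs with exactly the same seed, which held 77 miRNAs, let-7 and miR-148 with miR-152 were the 2 with members called in opposite directions. All members were called lower in 6 groups and higher in 4. Over all measured miRNAs 34.5% were called higher and 28.3% lower. Groups of unrelated miRNAs were not counted, so these counts do not show that members of a seed group agree more often than such groups.

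miR-181, a family known from lymphocyte development, was higher in RC-MVs with all of its 4 members, where 34.5% of all measured miRNAs were. miR-181a-5p had 14025 reads in RC-MVs against 19212 in RC-cells, or 1.26% and 0.295% (ratio 4.29, 4.20 to 4.39). miR-181b-5p had 2548 and 6825 reads (ratio 2.19), miR-181c-5p 35 and 28 reads (ratio 7.35, 4.34 to 12.5) and miR-181d-5p 161 and 213 reads (ratio 4.44). The sum was 3.75-fold higher in RC-MVs (2.28-fold without miR-181a-5p) and 3.13-fold higher in GC-MVs than in the cells of each zone. The miR-378 family, with genes linked to energy metabolism, had a ratio of 4.31, with 4.33 for miR-378a-3p (1691 and 2295 reads) and 4.23 for miR-378b (379 and 527 reads). miR-193a-3p (27 and 63 reads) and miR-193b-3p (0.0170% and 0.00694%) had ratios of 2.52 and 2.44.

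At the lower end, miR-26a-5p, which is known to restrain the methyltransferase Ezh2, had 1021 reads in RC-MVs against 59034 in RC-cells, or 0.0921% and 0.906%, 9.84-fold lower (9.25 to 10.5). Its relative miR-26b-5p had 66 and 5229 reads and was 13.5-fold lower (10.6 to 17.5). The family sum was 10.1-fold lower in RC-MVs and 4.69-fold lower in GC-MVs. The 2 members of the miR-27 family were also both lower, with a sum 6.05-fold lower in RC-MVs. Beside these families and the next, 28.3% of all measured miRNAs were called lower. The miR-34 family, induced by p53, was lower with each measured member: miR-34a-5p was 6.14-fold lower (48 and 1731 reads), miR-34b-5p 5.46-fold lower (100 and 3209 reads) and miR-34c-5p 6.24-fold lower (203 and 7441 reads). Of the same seed, miR-449a-5p (0 and 114 reads) and miR-449c-5p (0 in both) were not measured. Of the miR-15 and miR-16 family, which targets cyclins and Bcl2, miR-16-5p had 74 and 3856 reads and was 8.87-fold lower, miR-322 had 18 and 750 and was 7.09-fold lower, and miR-15b-5p had 11 and 344 and was 5.32-fold lower. Its other members, miR-195-5p (1 and 55 reads) and miR-497-5p (5 and 61 reads), were below 10 reads in RC-MVs. miR-16-5p was only 1.31-fold lower in GC-MVs than in GC-cells.

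In the miR-30 family, 4 of 5 members were called lower, where 28.3% were over all measured miRNAs, between 2.49-fold (miR-30b-5p, 102 and 1495 reads) and 5.80-fold (miR-30c-5p, 198 and 6755 reads), and the most abundant, miR-30a-5p, was 1.98-fold lower with 4444 and 51631 reads. The miR-29 family, which represses collagens and other matrix genes, rested on 1 member. miR-29a-3p had 1647 reads in RC-MVs against 29263 in RC-cells and was 3.02-fold lower (2.88 to 3.18), whereas miR-29b-3p had 44 and 234 reads and nearly equal shares (ratio 1.11, 0.782 to 1.53). Without miR-29a-3p the family's ratio was 1.07, so that the sum describes that member and not the family. The miR-23 pair differs by 1 base in the 3′ part, yet miR-23a-3p was 1.28-fold higher (5062 and 23192 reads) and miR-23b-3p 2.42-fold lower (2112 and 30087 reads). The miR-99/100 family, which targets mTOR, held 3.75% of RC-MV reads and 2.25% of RC-cell reads (ratio 1.66), with miR-99b-5p at 2.02-fold.

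**Figure D2:**
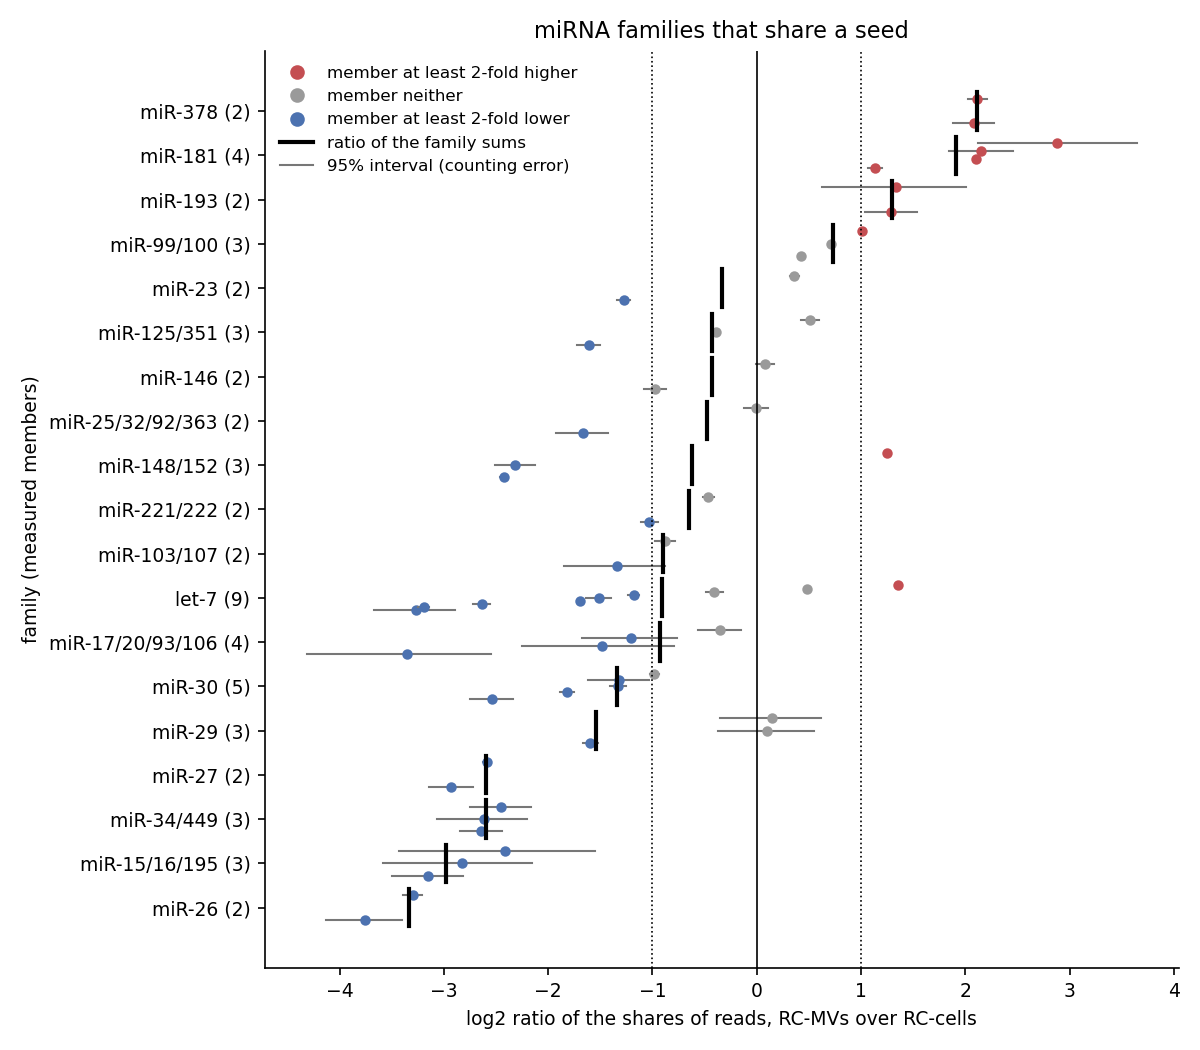
Ratio of the share of miRNA reads in RC-MVs to that in RC-cells (log2) for members of 19 families with the same seed and at least 2 measured members, with 95% counting intervals. Points are members coloured by call, black bars the ratio of the family sums and dotted lines 2-fold; let-7 and miR-148 with miR-152 have members beyond both dotted lines.

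The arms of a precursor are cut from the same hairpin, but reads were added by name, and an arm that several genes encode also holds the reads of the other genes. Both arms were measured for 90 precursors, of which 14 had such a shared arm. The ratios of the arms were at least 2-fold apart for 68 of these and at least 4-fold apart for 41, with a median distance of 1.66 on the log2 scale. For 20 precursors the arms lay on opposite sides, 1 higher and the other lower by at least 2-fold in RC-MVs, and in 15 both arms were called in the same direction. Over all measured miRNAs 34.5% were called higher and 28.3% lower, so opposite calls also occur between unrelated miRNAs. The 20 were not compared with pairs of unrelated miRNAs and do not show that arms differ more often than such pairs. Of the 76 precursors with arms that 1 gene alone encodes, a set chosen after the data were seen, 56 had arms at least 2-fold apart and 15 had them on opposite sides. The other 5 of the 20, Mir128-1, Mir17, Mir30c1, Mir30c2 and Mir92a1, had a shared arm, which for the Mir30c genes was the same miR-30c-5p.

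Mir140 is the gene of the best known cartilage miRNA, which lies within Wwp2 and is needed for normal growth plate development. miR-140-3p had 10542 reads in RC-MVs against 24948 in RC-cells, or 0.951% and 0.383%, and was 2.48-fold higher in RC-MVs (2.43 to 2.54). miR-140-5p had 94 and 4626 reads, or 0.00848% and 0.0710%, and was 8.37-fold lower (6.83 to 10.4). The 3p arm therefore gave 99.1% of the pair's reads in RC-MVs, against 84.4% in RC-cells. In the growth zone miR-140-3p was 1.57-fold higher and miR-140-5p 3.75-fold lower in the vesicles. Of the other cartilage miRNAs listed, miR-455-5p (262 and 4089 reads) was 2.66-fold lower, miR-455-3p (185 and 632 reads) was 1.72-fold higher, and both arms of miR-675 had 0 reads in both libraries.

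For Mir148a the balance of arms turned over. miR-148a-5p had 12424 reads in RC-MVs against 6788 in RC-cells, or 1.12% and 0.104%, and was 10.8-fold higher in RC-MVs (10.4 to 11.1), against the 5.35-fold lower share of miR-148a-3p. The 3p arm made up 96.3% of the reads of both arms in RC-cells and 30.8% in RC-MVs. GC-MVs had 3.43-fold more miR-148a-5p and 1.92-fold less miR-148a-3p, by share, than GC-cells. The related Mir152 did not behave so: miR-152-5p (1586 and 1682 reads) was 5.54-fold higher and its 3p arm, given above, was higher as well.

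Further precursors among the 20 whose major arm in RC-cells was the minor arm in RC-MVs were Mir27a, Mir485, Mir30c2 and Mir410. miR-27a-5p had 911 reads in RC-MVs against 1961 in RC-cells (ratio 2.73, 2.52 to 2.96), while miR-27a-3p had 192 and 8591 reads and was 7.61-fold lower (6.6 to 8.83), so that the 3p arm held 17.4% and 81.4% of the pair's reads. miR-485-5p had 879 and 955 reads (ratio 5.41), while miR-485-3p had 33 and 1199 and was 6.18-fold lower, and the 3p arm held 3.62% and 55.7%. miR-30c-2-3p had 571 and 674 reads (ratio 4.98), while miR-30c-5p, which Mir30c1 also encodes, was 5.80-fold lower. The arms of Mir485 both hold 54.5% G and C, so their difference does not go with that measure.

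The widest distance among the 20 was 74.8-fold, for Mir92a1, with few reads of 1 arm and the other shared with Mir92a2, so that it is not a distance within 1 hairpin. Among the precursors with no shared arm, Mir148a had the widest, 57.6-fold. For Mir92a1, miR-92a-1-5p had 44 reads in RC-MVs against 11 in RC-cells (ratio 23.5, 11.9 to 50.5), and miR-92a-3p had 141 and 2635 (3.18-fold lower, 2.68 to 3.79). miR-106b-3p (528 and 643 reads) was 4.83-fold higher against a 2.79-fold lower miR-106b-5p (18 and 295 reads), and miR-125a-3p (141 and 211 reads) 3.93-fold higher against a 3.05-fold lower miR-125a-5p (728 and 13069 reads). miR-21-3p, the passenger arm of the most abundant miRNA of RC-cells, had 204 and 581 reads and was 2.06-fold higher (1.75 to 2.42). For Mirlet7b, as for Mir140, Mir106b and Mir382, the higher arm was the major arm of RC-cells, and let-7b-3p had 28 and 452 reads and was 2.75-fold lower (1.87 to 4.18). The 3p arm was the higher of the pair in 43 of the 90 precursors, so neither arm name went with RC-MVs.

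**Figure D3:**
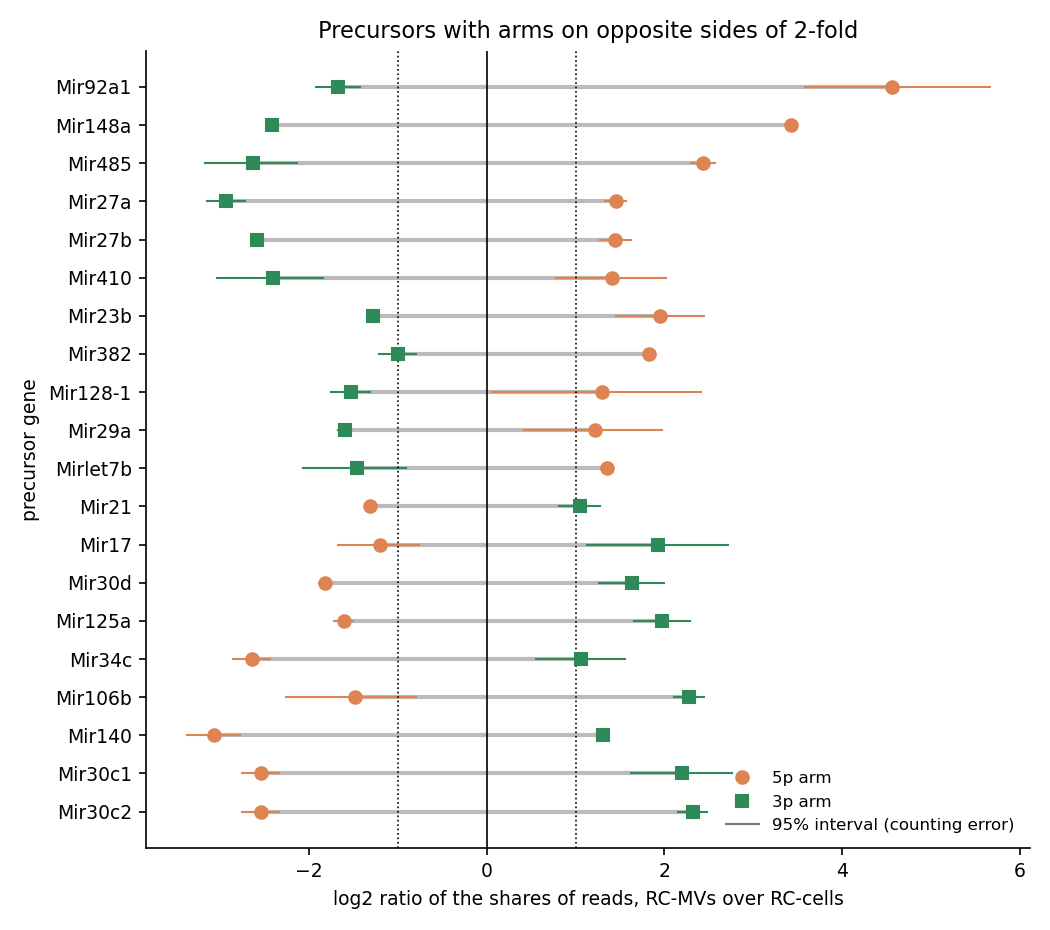
Ratio of the share of miRNA reads in RC-MVs to that in RC-cells (log2) of the 5p arm (circles) and 3p arm (squares) of the 20 precursors with arms on opposite sides of 2-fold (dotted lines), with 95% counting intervals. The 5p arm is the higher one in the upper 11 precursors and the 3p arm in the lower 9.

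Genomic clusters were taken from the RefSeq table of GRCr8 as miRNA genes of 1 strand with at most 10 kb between neighbours, and 34 of them had at least 2 measured products. A gene whose strand the table lacked took that of its nearest neighbour. The summed share was higher by at least 2-fold for 8 and at least 2-fold lower for 10, and 13 held products called in opposite directions. Over all measured miRNAs 34.5% were called higher and 28.3% lower, and the 13 were not compared with groups of unrelated miRNAs. Sums were taken locus by locus, so that a product with several genes entered each cluster with the reads counted at that locus.

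Several clusters on chromosome 6 lie in the Dlk1-Dio3 domain and were also described as 1 unit. It is an imprinted region whose miRNAs are made from the maternal chromosome and are abundant in embryonic and mesenchymal tissues. From Mir770 to Mir3072 it held 58 miRNA genes with 101 product names, of which 70 were measured. Together they had 218506 reads in RC-MVs against 458095 in RC-cells, or 19.7% and 7.03% of miRNA reads, 2.80-fold higher in RC-MVs (2.79 to 2.82). The growth zone ratio was 1.80. The sum did not describe the typical product, since 23 were called higher, 20 lower and 27 neither, close to the 34.5% and 28.3% called over all measured miRNAs, and the median log2 ratio was 0.09, beside 0.12 over all measured miRNAs.

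The sum was carried by abundant products. miR-127-3p, whose gene lies antisense to the imprinted gene Rtl1, had 75867 reads in RC-MVs against 112685 in RC-cells, or 6.84% and 1.73%, and was 3.96-fold higher (3.92 to 3.99). Without it the ratio of the domain was 2.43. miR-134-5p, known for its control of dendritic spines in neurons, had 38061 and 18795 reads, or 3.43% and 0.288%, and was 11.9-fold higher (11.7 to 12.1). miR-370-3p had 14071 and 12003 reads and was 6.89-fold higher, miR-541-5p 21347 and 40468 reads and 3.10-fold, miR-341 13581 and 24482 reads and 3.26-fold, and miR-381-3p 16586 and 41093 reads and 2.37-fold. All 23 higher products held 18.3% of RC-MV reads and 4.38% of RC-cell reads, and the 20 lower products 0.197% and 1.09%.

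Among the lower products were neighbours of those above. miR-411-5p had 226 reads in RC-MVs against 23291 in RC-cells, or 0.0204% and 0.357%, and was 17.5-fold lower (15.4 to 20.1), and its 3p arm, with 13 and 3412 reads, was 44.7-fold lower (26.1 to 84.0), the lowest ratio of the 293. The growth zone values were 6.99-fold and 12.7-fold lower. miR-379-5p, from the gene next to Mir411, had 4893 and 49990 reads and was 1.74-fold lower. miR-494-3p (161 and 5846 reads) was 6.18-fold lower, miR-493-5p (81 and 4011 reads) 8.42-fold lower, miR-136-3p (350 and 9942 reads) 4.83-fold lower and miR-369-3p (10 and 822 reads) 14-fold lower. Mir410, the next gene after Mir369 in the plot of the domain, had its arms on both sides of 2-fold, with miR-410-5p (34 and 75 reads) 2.66-fold higher and miR-410-3p (26 and 811 reads) 5.31-fold lower.

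The stretches of the domain differed in their sums. The genes from Mir770 to Mir136 summed to a 3.36-fold higher share (2.04-fold without the most abundant product), with 8 of 18 measured products higher and 2 lower, and the 3 measured products from Mir341 to Mir370 were all higher (4.45-fold, and 6.83-fold without the most abundant). The genes from Mir379 to Mir3072 summed to 2.22-fold (1.92 when the 3 most abundant miRNAs were left out of the totals), with 12 of 49 higher and 18 lower, against 34.5% and 28.3% over all measured miRNAs. Of its related miR-376 products, miR-376a-3p (65 and 55 reads) was 6.95-fold higher, whereas its close relative miR-376c-3p (30 and 901 reads) was 5.11-fold lower and miR-376b-3p (74 and 546 reads) 1.26-fold lower. The higher products of the domain were 11 of the 5p arm, 9 of the 3p arm and 3 with no arm in the name, and the lower ones 6, 12 and 2. The median share of G and C was 57.8% in the 20 higher products with a sequence and 40.9% in the 20 lower ones.

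**Figure D4:**
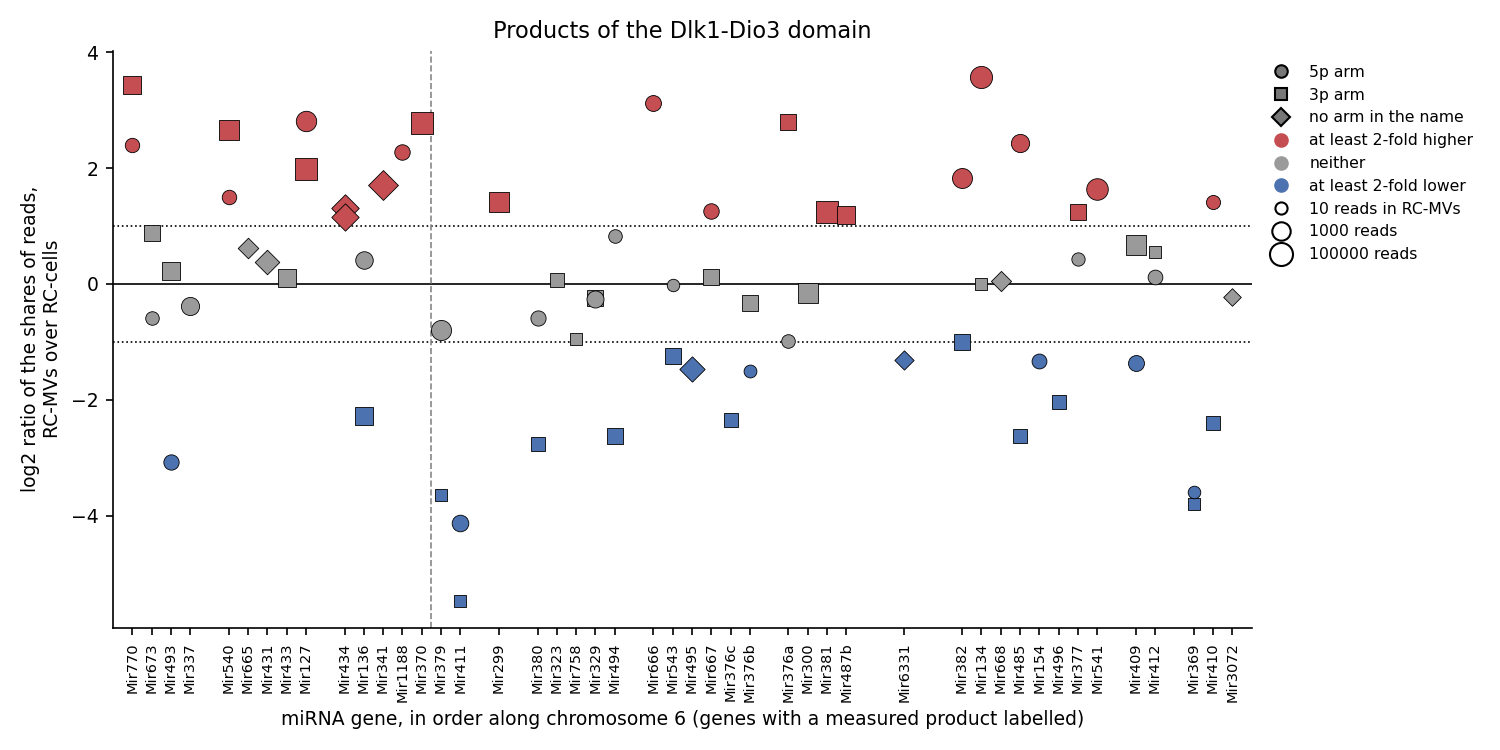
Ratio of the share of miRNA reads in RC-MVs to that in RC-cells (log2) for the 70 measured products of the Dlk1-Dio3 domain, in the order of their genes along chromosome 6. Marker shape gives the arm, size the reads in RC-MVs and colour the call, dotted lines mark 2-fold and the dashed line the boundary between Mir370 and Mir379; products from log2 -5.48 (miR-411-3p) to 3.57 (miR-134-5p) alternate along the domain.

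Paired clusters with the same kinds of products differed from each other. The Mir24-1 to Mir23b cluster on chromosome 17 was 4.05-fold lower in RC-MVs (3.97 to 4.13), with 1.00% and 4.06% of miRNA reads, though its ratio was 0.51 without its most abundant product against 0.247 with it. Its paralogue from Mir24-2 to Mir23a on chromosome 19 was nearly equal, with 1.17% and 1.09%. miR-24-3p, which both encode, had 5686 and 62405 reads and was 1.87-fold lower, while miR-24-2-5p, of the second cluster alone, had 3898 and 5156 reads and was 4.44-fold higher. Of the proliferation-linked cluster from Mir17 to Mir92a1 the sum was 2.48-fold lower (ratio 0.404, and 0.551 without its most abundant product), with miR-20a-5p (12 and 723 reads) 10.3-fold lower and miR-17-5p (45 and 608 reads) 2.30-fold lower. It was mixed, since miR-92a-1-5p, given above, and miR-17-1-3p (24 and 37 reads, 3.81-fold) were higher. The 3 clusters of miR-181 genes were all higher, 3.44-fold, 3.79-fold and 4.52-fold, but the first, Mir181a-1 with Mir181b1, had a ratio of 1.92 without its most abundant product and 1.90 when each product was counted only at its locus with the most reads. Mir296 with Mir298, a small cluster near the imprinted Gnas gene, was 7.86-fold higher on 262 and 196 reads, and 3.84-fold higher without its most abundant product. The second miR-181 cluster fell to 2.13-fold in the same way.

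Other clusters had low sums. Mirlet7f-2 with Mir98 on the X chromosome was 9.17-fold lower, Mir421 with Mir374b 14.9-fold lower on 28 and 2455 reads (ratio 0.067, and 0.19 without its most abundant product), Mir34c with Mir34b 4.90-fold lower and Mir15b with Mir16 8.61-fold lower. Of these, Mir34c with Mir34b was mixed, since miR-34c-3p (47 and 132 reads) was 2.09-fold higher. Mir15b with Mir16 was 1.39-fold lower in the growth zone. The X-linked cluster from Mir450a1 to Mir322 summed to 1.79-fold lower, a ratio of 0.558, but rested on its most abundant product, without which the ratio was 0.954. It was mixed, with miR-450a-5p (144 and 10018 reads) 11.8-fold lower and miR-351* (30 reads in both libraries) 5.88-fold higher. Mir145 with Mir143, a pair known from smooth muscle, had nearly equal shares of 12.4% and 11.6%, although without miR-143-3p the ratio was 1.72.

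Base composition went with the ratio. A mature sequence was found for 265 of the 293 measured miRNAs (90.4%). The median share of G and C was 54.5% in the 92 higher miRNAs with a sequence, 50.0% in the 99 that were neither and 40.9% in the 74 lower ones. Across the 265 miRNAs the log2 ratio and the share of G and C had a correlation of 0.54 (Pearson) and 0.56 (Spearman). This describes 1 pair of libraries, in which all miRNAs share depth and preparation. Over the 130 miRNAs with 100 or more reads in both libraries they were 0.55 and 0.55. In the growth zone libraries, over 251 miRNAs, they were 0.48 and 0.51.

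Ranges of G and C were compared next. Of the 13 miRNAs below 35% G and C, 2 were higher and 8 lower, with a median log2 ratio of -2.35. Of the 24 miRNAs with 35% to under 40% G and C, 1 was higher and 19 were lower, with a median log2 ratio of -2.03. Of the 40 with 40% to under 45%, 7 were higher and 17 lower (median -0.79). The 56 with 45% to under 50% were nearly even, with 17 higher and 18 lower (median -0.51). Of the 62 with 50% to under 55%, 23 were higher and 10 lower (median 0.42), and of the 30 with 55% to under 60%, 15 and 2 (median 1.00). Of the 40 with 60% or more, in 2 ranges of 19 and 21, 9 and 18 were higher and none was lower, with medians of 0.93 and 1.89. Of the single bases, G had a Pearson r of 0.47 with the ratio, while r was 0.03 for C, -0.24 for A and -0.33 for U. Length did not vary with it (r of -0.04), and the median length was 22 bases in the higher and the lower miRNAs. The relation held for 5p arms (r of 0.49, n = 123) and for 3p arms (0.58), which make up most of the remaining sequences. In the seed alone r was 0.36 and in the rest of the sequence 0.38, while over the miRNAs with 100 or more reads in both libraries they were 0.18 and 0.44. The order differed between arms, with 0.22 in the seed and 0.40 in the rest for 5p arms and 0.48 and 0.36 for 3p arms. miR-122-5p, with 45.5% G and C and the highest ratio of the 293 (4447 and 32 reads), lay far off the trend.

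**Figure D5:**
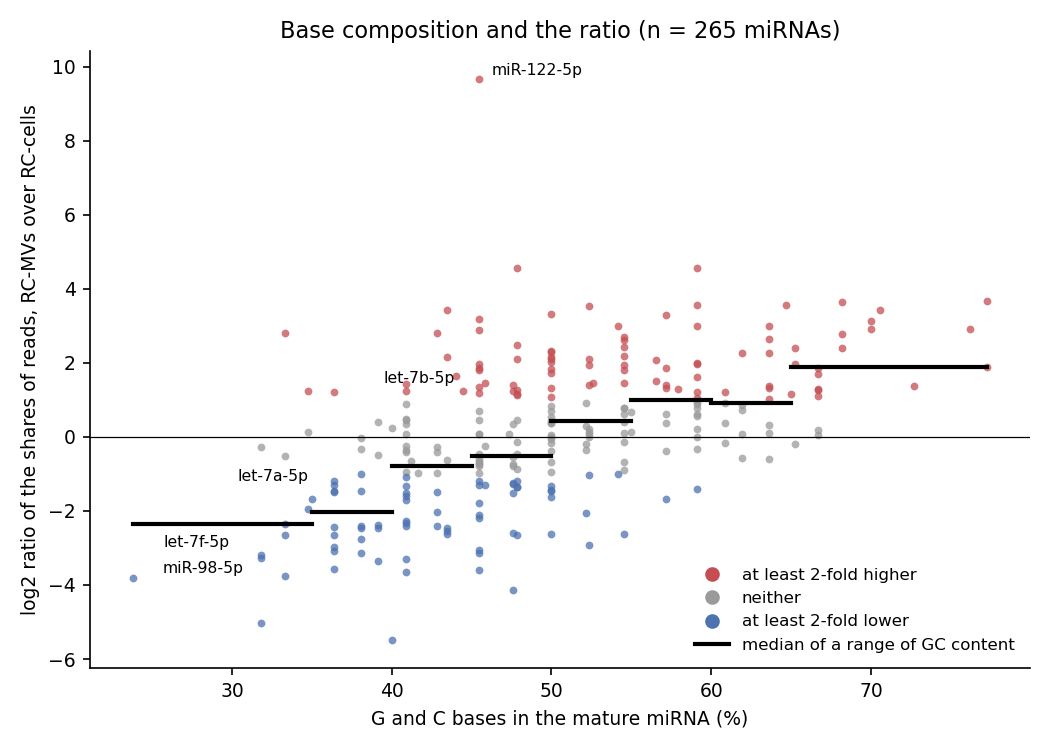
Share of G and C in the mature miRNA (%) against the log2 ratio of the share of miRNA reads, RC-MVs over RC-cells, for the 265 measured miRNAs with a RefSeq sequence. Colours give the call and black bars the median of each range of G and C, which is -2.35 below 35% and 1.89 at 65% and above, with 1 step down between them, from 1.00 at 55% to under 60% to 0.93 at 60% to under 65%.

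Pairs of arms and of miRNAs with the same seed were read in the same way. Of the 70 precursors whose arms differ in G and C, the arm with more was the higher one in RC-MVs in 51, and in GC-MVs in 39 of 57. Of 69 pairs of miRNAs with the same seed and unequal G and C, the member with more was the higher one in 46. Of these, 26 came from the 28 pairs within let-7, and the other seed groups gave 20 of 41. In GC-MVs the counts were 27 of 28 within let-7 and 26 of 39 in the other seed groups. The pairs share members and are not independent.

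At the ends of the sequence, the first base was U in 21.7% of the higher and 52.7% of the lower miRNAs, and G in 15.2% and 1.35%. Short motifs were searched in the mature strand only. GGAG was found in 15 of the 92 higher miRNAs (16.3%), in 11 of the 99 that were neither and in 1 of the 74 lower ones (1.35%), beside 10.2% of all 265 measured with a sequence and 7.89% of all 659 sequences matched. miR-296-3p and miR-770-3p, printed above, hold it and miR-134-5p does not, and GGAG was not separated from the share of G in these counts. UGUG was found in 23.9% of the higher and 10.8% of the lower miRNAs (17.0% of those measured), GGCU in 17.4% and 12.2% (13.6%) and CCCU in 3.26% and 5.41% (7.92%). These are counts of letters and not sites.

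Beyond the measured miRNAs, 11 had 10 or more reads in RC-MVs and fewer in RC-cells, and the interval of the ratio lay wholly above 2-fold for all 11. As RC-cells had 5.88-fold more reads, the choice of these miRNAs already sets each ratio above 5.88. The count of 11 therefore follows from the choice and is not a separate result. The 11 included miR-23a-5p, the passenger arm of Mir23a, with 71 and 8 reads (ratio 52.2), miR-193b-5p with 40 and 7 reads (33.6) and miR-139-5p with 43 and 9 (28.1). In the deeper RC-cell library 97 had 10 or more reads with fewer in RC-MVs, and the interval lay wholly beyond 2-fold lower for 24. The 97 were picked by their few reads in RC-MVs, so the 24 depend on that choice. They do not show that lower shares are common. miR-365-3p had 4 reads in RC-MVs against 1002 in RC-cells (42.6-fold lower, 16.6 to 157), although miR-365-5p, named for the other arm, had 148 and 73 reads and was 11.9-fold higher (8.94 to 16). miR-155-5p, a miRNA of inflammation, had 5 and 813 reads (27.7-fold lower), and miR-503, whose seed is close to that of miR-16-5p, had 0.000271% and 0.00555% of miRNA reads. The remaining 112 with reads had fewer than 10 in both libraries, and 227 names had none in either.

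miRNAs of other cell types were read as whole lists of the names summed here. miR-486 (erythroid) and miR-885 (liver) were planned but are not among these names. The 3 listed erythroid miRNAs summed to 827 reads in RC-MVs against 8 in RC-cells, with miR-451-5p at 681 and 5, miR-144-3p at 144 and 2, and miR-144-5p at 2 and 1. Of 6 leukocyte and platelet miRNAs, which summed to 1478 and 8203 reads, miR-142-3p (62 and 3), miR-142-5p (13 and 11), miR-223-3p (48 and 1) and miR-150-5p (33 and 59) had higher shares in RC-MVs, miR-146a-5p (1317 and 7316) a nearly equal share and miR-155-5p a lower one. Of 4 liver miRNAs, miR-122-5p alone was higher, while miR-192-5p (180 and 1551 reads) and miR-194-5p (10 and 269) were not and miR-122-3p had 0 reads in both. The miRNAs of red and white blood cells and of liver that were higher in RC-MVs are also abundant in blood, and the part of such cells in these values was not tested.

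Few reads came from most other lists. The 7 epithelial miRNAs had 6 reads in RC-MVs against 90 in RC-cells in all, and the 6 muscle miRNAs 36 and 648, with miR-208a-3p at 0 in both. Most of the muscle reads in RC-cells were of miR-499-5p (17 and 624 reads, 6.24-fold lower in RC-MVs), while miR-206-3p (12 and 18 reads) was 3.92-fold higher and miR-133a-3p had 6 reads against 0. The 2 endothelial miRNAs had 175 and 1731 reads, with miR-126a-3p 1.64-fold lower in RC-MVs (in the growth zone it was 2.97-fold higher). For miR-126a-3p in the resting zone the paper reports the opposite direction, an enrichment in the vesicles by PCR array and by RT-qPCR. The reason for this disagreement was not tested. Of the 8 neural miRNAs, miR-124-3p and miR-137-3p had 0 reads in both libraries, and the list summed to 2311 and 4396 reads. The 2 members measured went opposite ways, miR-129-5p (2122 and 1283 reads), with most of the RC-MV reads, at 9.72-fold higher and miR-128-3p (175 and 2967 reads), with most of the RC-cell reads, at 2.88-fold lower. The 4 pancreas miRNAs had 588 and 13137 reads, nearly all of miR-7a-5p. The 6 mesenchymal miRNAs (miR-21-5p, miR-143-3p, miR-145-5p, both arms of miR-199a and miR-214-3p) held 30.9% of RC-MV reads and 57.9% of RC-cell reads.

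The growth zone libraries gave a second pair of the same kind, from other libraries, and nothing in the labels says whether other animals or preparations were used. Of the 101 miRNAs higher in RC-MVs, 93 were measured there, and 86 had a ratio of GC-MVs to GC-cells with an interval wholly above 1. Of the 83 lower ones, 78 were measured and 70 had an interval wholly below 1. Of all 262 miRNAs measured in both zones, 47.3% had a growth zone interval wholly above 1 and 36.6% wholly below it. The median log2 ratio of the higher miRNAs was 1.97 in the resting zone and 1.5 in GC-MVs against GC-cells, and that of the lower ones -2.16 and -1.45. As these miRNAs were picked at 2-fold in the resting zone, smaller values in the growth zone do not by themselves show a difference between zones.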

How the data were processed

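Small RNA libraries, 1 of vesicles and 1 of cells for each zone, were grouped by their labels. The authors aligned reads with Bowtie2 to the rat genome Rnor_6.0 (submitters' processing notes), tabulated miRNAs with miARma-Seq and deposited raw counts per locus, not normalised. Versions, trimming and the treatment of reads matching several loci are not given in the sources used here. The culture and vesicle preparation could differ between runs, and with 1 library per group this cannot be told apart from the comparison.

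From the deposited counts, 774 loci were added by product name into 740 names (28 with several loci) and expressed as percent of the library. A call needed 10 reads in both libraries and 2-fold. Ratios have exact Clopper-Pearson intervals at 95%. Gene order and mature sequences (659 names matched) came from RefSeq, GRCr8; no coordinates were converted between assemblies. Named were the miRNAs with the most reads, the 10 largest and 10 smallest ratios, and members of the families, arms, clusters and marker lists described. Members and lists were chosen with earlier results of these data known. edgeR 4.0.16 and DESeq2 1.42.0 (R 4.3.3) served for alternative scaling only. The calling steps were also run on simulated data, of which no result is given or used here. Scripts ran in Python 3.11.15 (scipy 1.17.1, pandas 2.3.3, numpy 2.4.6, matplotlib 3.10.9). Alternatives were other scalings, minimum reads of 1 and 100, a 4-fold threshold, an interval wholly beyond 2-fold, the highest locus per name, 0.5 added to counts, a 50 kb gap, sums without their top member and, added after the data were seen, arms that 1 gene encodes.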

Additional observations from a re-analysis of the deposited data

Results flagged for a closer look

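For 6 miRNAs called in the resting zone, the ratio of vesicles to cells lay on the other side of 1 in the growth zone, with 1 library per group, and the difference between zones was not tested. The values are the resting zone log2 ratio minus that of the growth zone. The difference was -2.20 for miR-30b-5p, which was 2.49-fold lower in RC-MVs (102 and 1495 reads) and 1.84-fold higher in GC-MVs (446 and 1829 reads, interval 1.66 to 2.04). It was -1.75 for miR-154-5p, 2.5-fold lower in RC-MVs (59 and 868 reads) and 1.35-fold higher in GC-MVs (82 and 460 reads, 1.05 to 1.70). For the other four the growth zone interval included 1. The difference was -1.69 for miR-376b-5p (15 and 249 reads in RC-MVs and RC-cells, 1.14-fold higher in GC-MVs), -1.46 for miR-17-5p (45 and 608 reads, then 95 and 598 in GC-MVs and GC-cells), 1.46 for miR-27a-5p (911 and 1961, then 182 and 1379) and 1.09 for miR-21-3p (204 and 581, then 66 and 513).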

How the results depend on the processing

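Calls of single miRNAs are limited by depth in RC-MVs and by the lack of replicates. Of 1294 alternative values, 974 stayed within their counting interval or within 1.5 times the main count. Another 4, all of sums at least 2-fold apart, changed direction, and the rest moved. Of the 974, 185 were ratios with 0.5 added to both counts. So small a change can hardly take a ratio out of its interval, so these 185 are not a separate result. A further 30 of the 974 were cluster sums at the 50 kb gap, a setting under which no sum moved. The 974 is therefore not a measure of how stable the results are. The crossings of 1 by sums under 2-fold that are given below were counted as moved. The count of higher miRNAs was 51 with a minimum of 100 reads and 46 at 4-fold, against 101. The count of lower miRNAs was 126 with a minimum of 1 read, 38 with 100 reads and 44 at 4-fold, against 83. With 100 reads of both arms, 27 precursors had both arms measured, 20 had arms at least 2-fold apart and 7 had arms called in opposite directions. By construction, fewer miRNAs enter at 100 reads and more at 1 read. Sums can rest on their most abundant member: the miR-29 family had a ratio of 1.07 without miR-29a-3p and a median ratio of 1.07, the Mir29a to Mir29b1 cluster 1.37 without it, and the Mir6326 to Mir22 cluster 0.522 without miR-22-3p. Among sums under 2-fold, 3 families and 4 clusters also lay on the other side of 1 without their top member, such as miR-148 with miR-152 (2.11 against 0.651) and Mir99b to Mir125a (0.479 against 1.46). Leaving the 3 most abundant miRNAs out of the totals also took some cluster sums near 1 across it. Examples were Mir145 with Mir143 (0.926 against 1.07) and Mir24-2 to Mir23a (0.935 against 1.08). Under other scalings 91 to 101 miRNAs were higher and 80 to 91 lower. The log2 ratios shifted by 0.01 (TMM), -0.08 (DESeq2) and -0.21 (total without the 3 most abundant miRNAs). Shifts this small could not change the direction of a miRNA called at 2-fold, so that none did is not a separate result. With the whole interval beyond 2-fold, 79 were higher and 64 lower. No paired analysis was possible because RC-MVs and RC-cells had 1 library each, and a fit over both zones would not describe the resting zone alone.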
